A study of Daphnia magna with 12 samples.

Results

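The comparison set all 8 old samples of the series against its 4 young samples, so it used all 12 samples analysed. The old samples were 4 from reproducing and 4 from non-reproducing Daphnia magna females aged 130 to 170 days, and the young samples came from reproducing females aged 20 days. All were females of 1 clone, GB-EL75-69, so other genotypes are not covered, and were kept singly at 20 °C in 20 mL of ADaM medium with Scenedesmus acutus as food, and the RNA is labelled whole body, somatic. Age was the only treatment named. There were no young females that had stopped reproducing, so age and the end of reproduction are joined in the non-reproducing animals, and the present question was which changes with age appear in both reproductive states. Of 21456 gene models listed, 10987 passed a filter on low counts and were tested. Total counts ranged from 16015869 to 25659597 per sample.

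Daphnia are small freshwater crustaceans whose females make clonal eggs in successive clutches and carry the brood in a chamber under the carapace. Moulting, growth and egg production run in repeated cycles through adult life, and females go on growing and moulting after maturity. In RNA from a whole body, fewer cells of a type and less RNA per cell cannot be told apart. The gene IDs are those of a gene-prediction pipeline and 0 of them were found in the RefSeq gene table at hand. No function is therefore assigned here, and the tissue label could not be checked against marker genes. IDs are printed for at most 2 genes in each direction. Other genes are given by their rank and by the contig, the assembled stretch of genome, that their ID names.

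Old females differed from young ones in 891 genes, 593 higher and 298 lower, by edgeR's quasi-likelihood test of the mean of both old groups against young (adjusted p under 0.05, called below). These were 8.11% of the genes tested, 5.4% higher and 2.71% lower. The median log2 change was 1.36 in the genes called higher and -1.83 in those called lower, against -0.01 over all tested genes. Median standard errors (SE), worked back from the test's F value, were 0.25 and 0.46. Changes of at least 1 log2 unit made up 424 of the higher and 275 of the lower calls, and changes of at least 3 units made up 85 and 17. With genes of at most 3 counts in each young sample set at their bound, the 85 become 63. Before adjustment, 1429 genes were higher and 1615 lower at p under 0.05, so higher genes outnumbered lower ones among called genes but not at this looser threshold. The smallest adjusted p was 1.36e-05. Nothing in the labels says whether the samples came from separate cultures beyond single housing, so p-values measure the spread between these samples.

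**Figure D1:**
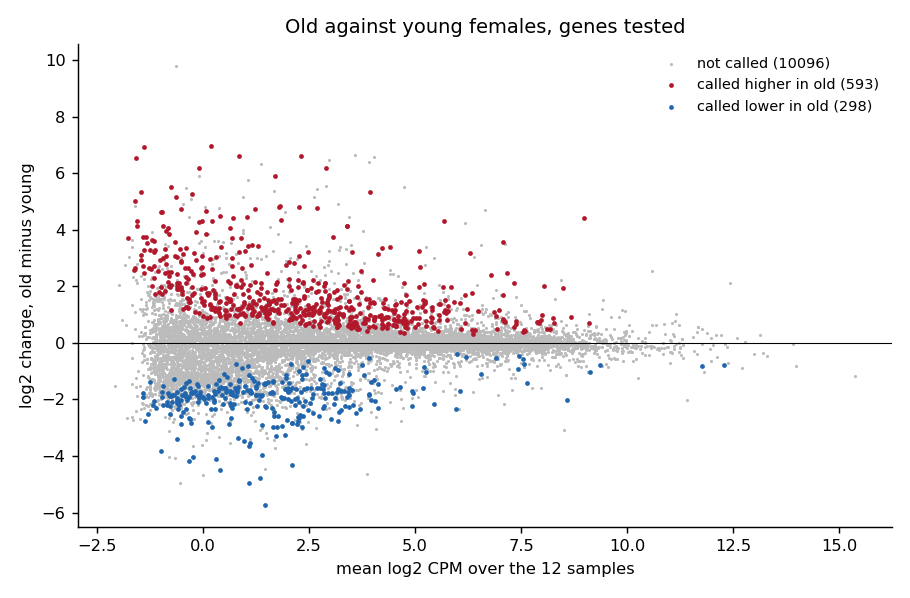
Log2 change of old against young females (vertical axis) by mean log2 CPM over the 12 samples (horizontal axis), one point per tested gene, with 593 genes called higher in red, 298 called lower in blue and the rest in grey. Called genes lie at every level, and 85 of the higher and 17 of the lower ones reach a fitted change of 3 log2 units.

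The higher and the lower genes differed in how evenly the samples carried them. In 482 of the 593 higher genes, or 81.3%, each of the 8 old samples lay above each of the 4 young ones in normalised CPM, that is counts scaled to a common library size. In only 34 of the 298 lower genes, or 11.4%, did all old samples lie below all young ones. Over all tested genes such separation was found upward in 559 (5.09%) and downward in 57 (0.519%). Among the separated called genes, the lowest old value was at least 2-fold above the highest young value in 91 higher genes, and the lowest young value was at least 2-fold above the highest old value in 2 lower genes. The median of this gap was 1.38-fold for the rises and 1.14-fold for the falls. The calls were made on these same values, so separation among called genes is a description only. Of the 482 separated higher genes, 29 had at most 3 counts in each young sample. These 29 passed the filter through their old samples, so their direction was set in advance and their separation is not a result. Other low genes may have passed in the same way and were not counted. Among lower genes, 0 had at most 3 counts in each old sample.

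The median rise was close in height in all old samples, and each old non-reproducing sample lay above each old reproducing one. The median difference from the young mean over the 593 genes was 1.10, 1.10, 1.26 and 1.23 log2 units in old reproducing replicates 1 to 4 and 1.27, 1.39, 1.32 and 1.40 in old non-reproducing replicates 1 to 4, against -0.07, -0.08, 0.10 and 0.06 in young replicates 1 to 4. The old samples thus spanned 1.10 to 1.40 and the young ones stayed close to 0. Because these genes were called in the same contrast, the distance between old and young is a description only.

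The fall was uneven, above all among the young. Over the 298 lower genes the median difference from the young mean was -0.70, -1.13, -0.48 and -1.72 log2 units in old reproducing replicates 1 to 4 and -1.95, -1.90, -1.53 and -2.08 in old non-reproducing replicates 1 to 4, against -0.66, 1.35, -1.06 and 0.37 in young replicates 1 to 4. Young replicates 1 and 3 lay among the old reproducing samples, and young replicates 2 and 4 lay above all of them. Young replicate 2 was the highest young sample in 258 of the 298 genes. Young replicates 2 and 4 both exceeded young replicates 1 and 3 in 251 of the lower genes (84.2%), against 89 of the higher genes (15.0%) and 25.1% of all tested genes. Values of young replicate 3 fell within the range of the old samples in 240 of the lower genes, and those of young replicate 1 in 193. What sets young replicates 2 and 4 apart was not tested.

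**Figure D2:**
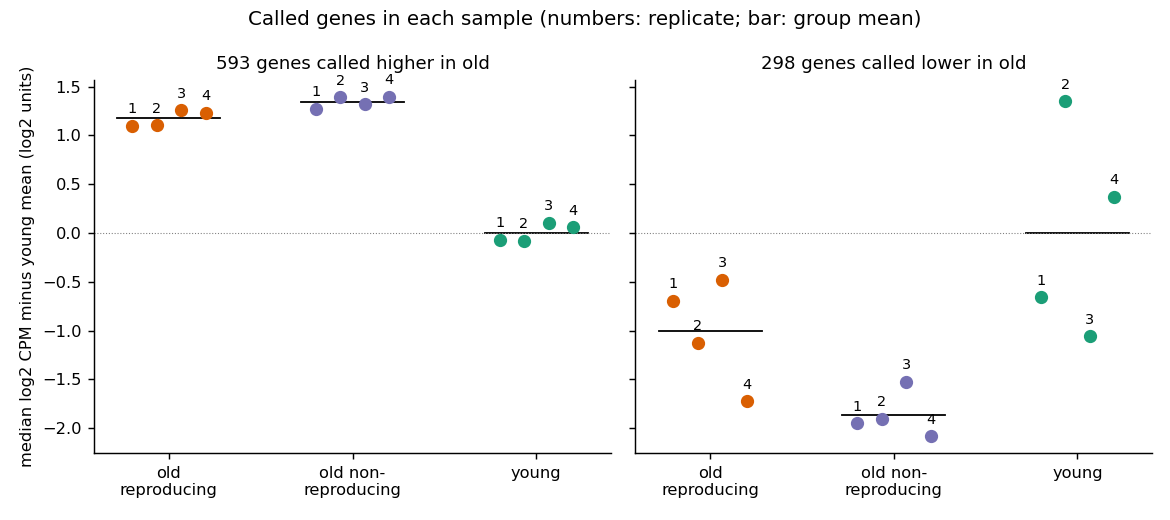
Median log2 difference from the young mean in each sample, over the 593 genes called higher (left) and the 298 called lower (right), with replicate numbers above the points and a bar at each group's mean. Old samples sit between 1.10 and 1.40 in the left panel, while in the right panel young replicates 1 and 3, at -0.66 and -1.06, lie among the old reproducing samples.

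The number of calls depended on single samples, more so for the falls. Leaving out 1 sample at a time gave 339 to 704 higher genes and 31 to 981 lower genes. Without young replicate 2 there were 339 higher and 31 lower genes, and without young replicate 4 there were 358 and 41. Without young replicate 3 there were 602 higher and 981 lower genes, and without young replicate 1 there were 654 and 669. Without old non-reproducing replicate 4, 423 higher and 46 lower genes were called. Lower calls also fell by over 1.5 times without any other single old sample, to between 50 and 196, with old reproducing replicate 2 giving the fewest of these. Of the 593 higher genes, 289 were called in the same direction in all 12 of these fits, and of the 298 lower genes, 21 were. A fit with old as a single group gave 532 higher and 104 lower genes. DESeq2 gave 1071 higher and 1031 lower genes, among which were 591 and 297 of the genes called by edgeR.

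Whether the change was of like size in both reproductive states was examined with the difference between the old groups in the same fit, which the mean of the old groups against young leaves out. By edgeR's quasi-likelihood test 0 genes (0% of those tested) were called between old non-reproducing and old reproducing females, with 0.150 as the smallest adjusted value. Before adjustment, 886 genes (8.06%) had p under 0.05. DESeq2 called 317 genes between the old groups, and edgeR called 327 without old non-reproducing replicate 1 and 0 in each fit that left out any other sample.

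In most rises the old groups differed little, as they did in most genes tested. The fitted difference between the old groups was under 0.5 log2 units in 486 of the 593 higher genes (82.0%), against 73.3% of all tested genes, and over 1 log2 unit in 42 (7.08%), against 11.8%. The median change against young was 1.41 log2 units in old non-reproducing and 1.25 in old reproducing females, 2 values that share the young samples. Before adjustment, 79 of these genes (13.3%) had an edgeR p under 0.05 for this difference, against 8.06% of all tested genes. Of the 79, 78 were higher in old non-reproducing females, as were 562 of the 886 such genes over all tested.

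Over the lower genes, the median was further from young in non-reproducing females. Their median change against young was -2.29 log2 units, against -1.34 in old reproducing females, with the young samples again shared. The difference between the old groups was under 0.5 log2 units in 63 of the 298 lower genes (21.1%) and over 1 log2 unit in 130 (43.6%). Its median was -0.91 log2 units, against -0.003 over all tested genes. Before adjustment, the edgeR p was under 0.05 for 74 of these genes (24.8%), against 8.06% of all tested genes. All 74 were lower in old non-reproducing females, as were 324 of the 886 such genes over all tested. None passed the adjusted threshold by edgeR.

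**Figure D3:**
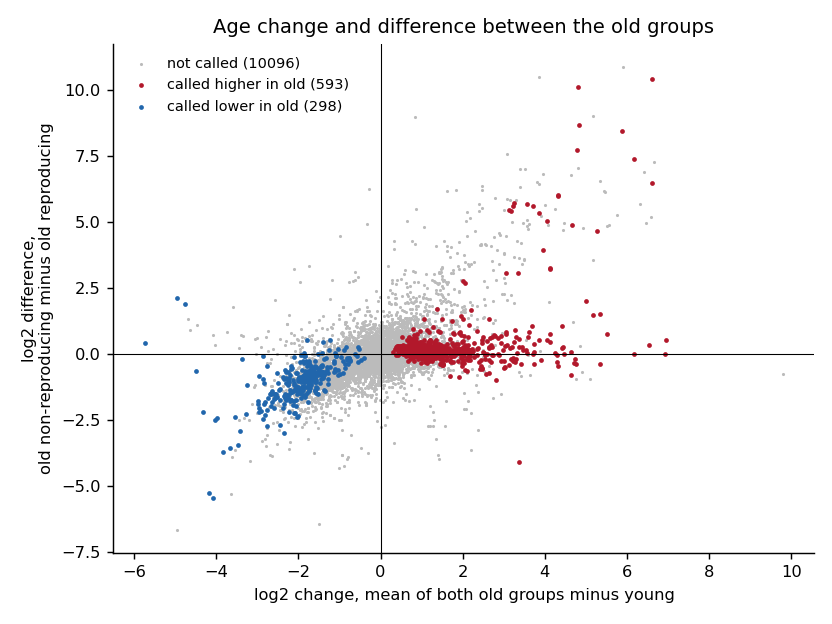
Log2 difference between old non-reproducing and old reproducing females (vertical axis) against log2 change of both old groups from young (horizontal axis), one point per tested gene. Most of the 593 higher genes (red) lie near 0 on the vertical axis, 42 of them beyond 1 log2 unit, and the 298 lower genes (blue) lie mostly below 0.

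The gene that rose most, among called genes of at least 10 CPM with no overlap between old and young samples, was genemark-000011F-processed-gene-25.34. It had 119, 18.7, 20.8 and 122 CPM in the reproducing old females and 59.3, 66.2, 52.6 and 38.03 CPM in the non-reproducing old females, against 1.02, 1.83, 0.620 and 2.44 CPM in young females, replicates 1 to 4 in each. Every old sample was many times higher than every young one, and the reproducing animals fell into a high and a low pair. The change was 5.34 on the log2 scale, with SE 0.72 and an edgeR adjusted p of 0.00170, and the non-reproducing minus reproducing difference was -0.37 (SE 0.61). It was called under all 23 alternatives.

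A large rise with a small error was that of maker-000038F-snap-gene-5.143, whose ID is given because of that error, after its values were seen. Its levels were 131, 182, 224 and 177 CPM in the reproducing old females and 209, 196, 186 and 240 CPM in the non-reproducing old females, against 32.4, 33.2, 41.0 and 41.1 CPM in young females. The old and young ranges lie far apart and the old groups overlap each other. The change was 2.38 on the log2 scale, with SE 0.16 and an edgeR adjusted p of 1.70e-05, or 5.21-fold, with 2.27 in old reproducing animals and 2.49 in the non-reproducing ones. Under all 23 alternatives it remained called.

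Other rises of the first 12 took 3 forms. Like rises in both old groups were found in the genes ranked 8, 9 and 12, of contigs 000008F, 000013F and 000191F. The gene ranked 9 had 26.5 to 126 CPM in old females (median 69.2) and 7.19 to 12.1 CPM in young females, a change of 2.69 on the log2 scale with SE 0.40 and an edgeR adjusted p of 0.00271. All 3 kept their call under every alternative. Rises carried mainly by old non-reproducing replicates 2 to 4 made up the second form, with the genes ranked 2, 5 and 6. The call of the gene ranked 2 was lost under 18 of 23 alternatives, and leaving out any single sample other than old non-reproducing replicate 1 was enough.

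The gene ranked 5, of contig 000003F, shows this form. It had 12.97, 13.5, 10.1 and 30.1 CPM in the reproducing old females and 13.1, 164, 192 and 188 CPM in the non-reproducing old females, against 2.92, 4.93, 4.03 and 6.93 CPM in young females. All 8 old samples lay above the young ones, and old non-reproducing replicate 1 lay with the reproducing animals. The log2 change was 4.88 in old non-reproducing and 1.81 in old reproducing females, and the change in reproducing females alone was not called (edgeR adjusted p = 0.250). Both this gene and the one ranked 6 lost their call without young replicate 2 (edgeR adjusted p = 0.0561 and 0.0689). The gene ranked 6 carries the same contig and the same number before the point in its ID and had 2.56 to 5.94 CPM in old reproducing, 3.29 to 49.8 CPM in old non-reproducing and 0.884 to 1.97 CPM in young females.

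Rises uneven within both old groups made up the third form, with the genes ranked 3, 4, 7 and 10. The gene ranked 4, of contig 000026F, had 30.5, 3.09, 54.0 and 36.7 CPM in the reproducing old females and 4.10, 45.5, 43.4 and 3.66 CPM in the non-reproducing old females, against 1.68 to 2.48 CPM in young females. Old reproducing replicate 2 and old non-reproducing replicates 1 and 4 lay near the young range and the other 5 old samples far above it. The gene ranked 10, of contig 000028F, had its lowest old values, 11.2, 7.39 and 6.62 CPM, in the same 3 samples, against 4.30 to 5.17 CPM in young females. Called genes of this form lost their call under 9 to 15 of the 23 alternatives.

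**Figure D4:**
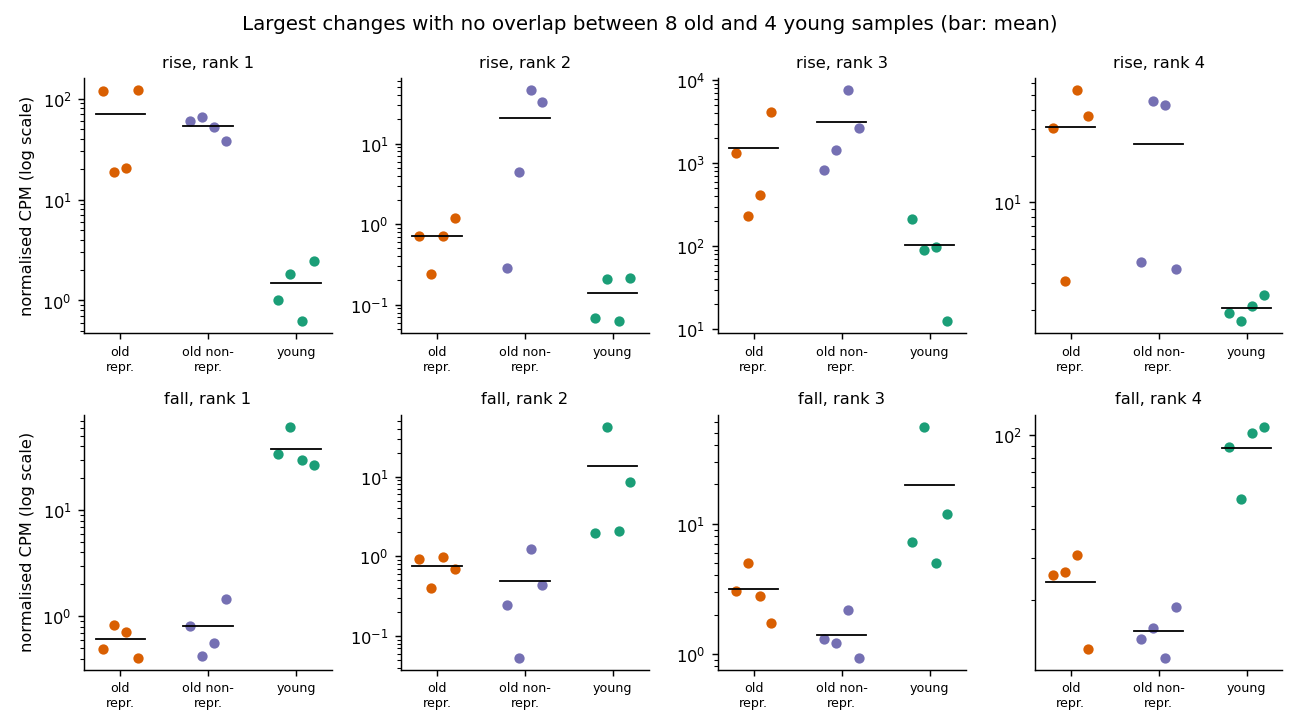
Normalised CPM on a log axis in each of the 12 samples for the 4 largest rises (top) and the 4 largest falls (bottom) among called genes of at least 10 CPM with no overlap between old and young samples, with bars at the group means. The first rise and the first fall separate old from young by wide gaps, while young replicate 2, at 42.2 and 55.6 CPM, stands far above the other young samples in falls 2 and 3.

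The largest fall was that of maker-000028F-snap-gene-5.63. Its levels were 0.491, 0.831, 0.710 and 0.403 CPM in the reproducing old females and 0.813, 0.422, 0.560 and 1.46 CPM in the non-reproducing old females, against 33.9, 61.4, 29.6 and 26.9 CPM in young females. The lowest young value exceeded every old value by a wide margin, and the old groups overlapped. The change was -5.72 on the log2 scale, with SE 0.34 and an edgeR adjusted p of 1.36e-05, the smallest adjusted p of all tested genes, and its level in young females was 52.9-fold that in old ones. The non-reproducing minus reproducing difference was 0.41 log2 units (SE 0.42), and the call was kept under all 23 alternatives.

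A fall of moderate size was seen in augustus_masked-000011F-processed-gene-27.51, the gene ranked 4, whose ID was chosen after its values were seen. It had 25.4, 26.2, 30.9 and 12.4 CPM in the reproducing old females and 13.7, 15.2, 11.3 and 18.6 CPM in the non-reproducing old females, against 89.4, 53.7, 102 and 108 CPM in young females. No old sample reached the young range, and young replicate 2 was the lowest young sample here. The change was -2.24 on the log2 scale, with SE 0.24 and an edgeR adjusted p of 0.000317, -1.89 in old reproducing animals and -2.59 in the non-reproducing ones. The non-reproducing minus reproducing difference was -0.69 (SE 0.29), with an edgeR p of 0.0348 before and 0.563 after adjustment.

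The genes ranked 2 and 3 among the falls rested in size on young replicate 2. The gene ranked 2, of contig 000000F, had 0.0528 to 1.23 CPM in old females, against 1.97, 42.2, 2.11 and 8.51 CPM in young females. Its call held without that sample but was lost with log2(RPKM + 1) values and with the replicate number in the model. The falls ranked 5 and 9 share contig 000018F and the number before the point in their IDs, and both had their 3 highest old values in old reproducing replicate 2 and old non-reproducing replicates 1 and 4. For the gene ranked 5 these were 20.0, 19.2 and 18.4 CPM, against 4.96 to 7.90 CPM in the other 5 old samples and 32.3 to 50.9 CPM in young females. Their calls were lost under 6 and 12 of 23 alternatives, and for the gene ranked 5 these include leaving out old reproducing replicate 4, young replicate 2 or young replicate 4. Falls of like size in both old groups were found in the genes ranked 8, 10 and 11, with log2 changes of -1.42, -1.09 and -1.09, each called under every alternative. The falls ranked 6 and 12, with old groups that differed by -0.27 and -0.05, lost their call under 3 and 16 of the 23 alternatives.

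Set against young separately by edgeR, 849 genes (7.73% of those tested) were called higher in old non-reproducing and 308 (2.8%) in old reproducing females, with the young samples shared. These held 557 and 305 of the 593 higher genes. The 593 were called on the mean of these same 2 comparisons, so the overlap is built in. A call in 1 old group and not in the other is no test of a difference between them. Between the old groups edgeR called 0 genes. All of the 6 most abundant higher genes were called in non-reproducing females (edgeR adjusted p 0.00628 to 0.0279) and 0 of the 6 in reproducing females, where edgeR adjusted p was 0.0606 or more. Of these genes, 3, all of contig 000011F, had log2 changes against young of 0.73, 1.30 and 0.46 in old reproducing females and 6.43, 7.33 and 5.89 in old non-reproducing females. The most abundant of them had 43.7, 34.7, 35.4 and 126 CPM in the reproducing old females and 52.8, 2690, 5382 and 4338 CPM in the non-reproducing old females, against 31.5 to 44.7 CPM in young females. Old samples overlapped young ones, and the mean of the old groups was carried by old non-reproducing replicates 2 to 4. The 3 calls were lost under 18, 16 and 18 of 23 alternatives. A gene of like change in both states, of contig 000074F, had 397 to 772 CPM in old females and 39.7 to 300.2 CPM in young females, with log2 changes of 1.97 in old non-reproducing and 1.94 in old reproducing females (edgeR adjusted p = 0.0257 for both together). Its call was lost without old reproducing replicate 2 (edgeR adjusted p = 0.0573) and without young replicate 4 (0.0739).

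The most abundant lower gene, of contig 000002F, averaged 4239 ± 784 CPM in old (SD, n = 8) and 7345 ± 1640 CPM in young females (SD, n = 4). Every old sample lay below every young one, the change was -0.80 on the log2 scale with SE 0.20 and an edgeR adjusted p of 0.0375, and the non-reproducing minus reproducing difference was -0.19. The next 2 lower genes by abundance, of contigs 000000F and 000013F, fell by 0.81 and 0.78 on the log2 scale and were also separated in all samples. The call of the first of these 3 was lost under 12 of 23 alternatives, that of the second under 7, 5 of which left out 1 sample, and that of the gene of contig 000013F only at an adjusted p of 0.01.

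The called genes took a small part of the RNA. Higher genes held 1.48 to 3.95% of the counts of old samples and 0.733 to 0.876% of those of young samples, with the 3 highest shares, 3.21, 3.95 and 3.61%, in old non-reproducing replicates 2 to 4. Lower genes held 0.902 to 1.36% in old and 1.68 to 2.37% in young samples. The 10 most abundant genes of a sample held 16.2 ± 2.83% of the counts in old (SD, n = 8) and 21.5 ± 1.67% in young females (SD, n = 4). This difference of -5.35 percentage points was larger than the spread between samples (exact permutation test, two-sided, p = 0.00808, or 0.0323 after adjustment over 4 measures). It missed the threshold without old reproducing replicate 3, young replicate 3 or young replicate 4 (adjusted exact permutation p = 0.0606, 0.0727 and 0.0606). Gene models with reads numbered 15679 ± 478 in old and 15002 ± 800 in young samples (SD, n = 8 and 4), a difference that did not pass the threshold (exact permutation p = 0.0909, adjusted 0.182), and neither did total counts or scaling factors.

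Higher genes had a shorter median length than the genes tested. Their median gene-model length, recovered from the deposited tables, was 1419 nucleotides (interquartile range 821 to 2519), against 2432 in lower genes and 2204 in all tested genes (1160 to 3785). The share called higher was 8.63% in the shortest quartile of genes and 6.15, 4.26 and 2.55% in the quartiles of increasing length, while the share called lower stayed between 2.44 and 3.02%. Level moves with length, since the median was 2.96 CPM in the shortest and 35.4 CPM in the longest quartile. Among genes of 10 to 100 CPM, 37 of 626 in the shortest quartile (5.91%) and 27 of 1044 in the longest (2.59%) were called higher. Lower calls made up 2.72% and 1.25% of these same genes, so at this level the drop with length was not particular to rises. Why the shares differ was not tested.

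**Figure D5:**
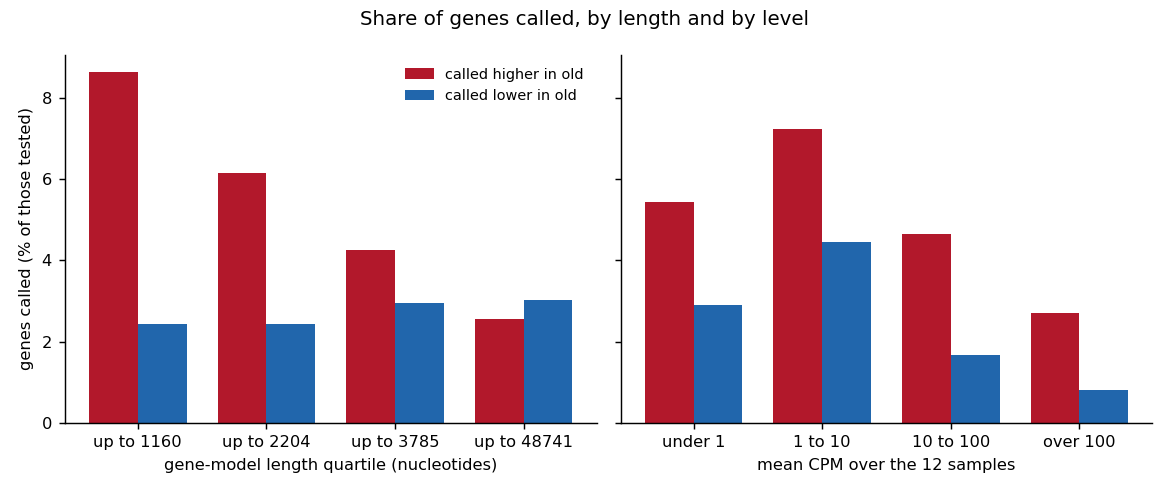
Percentage of tested genes called higher (red) or lower (blue) in old females, by quartile of gene-model length (left) and by mean CPM over the 12 samples (right). The higher share drops with length, at 8.63% in the shortest and 2.55% in the longest quartile, and the lower share stays between 2.44 and 3.02%.

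By level, higher calls made up 5.43% of genes under 1 CPM, 7.24% from 1 to 10 CPM, 4.65% from 10 to 100 CPM and 2.70% above 100 CPM. Lower calls took a like course, with 2.89, 4.46, 1.66 and 0.80% at these levels. In 34 called higher genes no young sample held more than 3 counts. Their mean was 0.426 to 8.13 CPM in old females, and 29 of them were separated in all samples. Since a gene with so few young counts passed the filter through its old samples, it had to be higher in old, and these 34 calls describe low genes detected in old females at this depth rather than absence in young ones. Models whose ID begins with maker made up 465 of the higher calls (5.53% of such models tested). Models whose ID begins with the name of a prediction program reached shares of 6.12% for GeneMark, 6.68% for SNAP and 2.37% for Augustus. The sources used here do not state what evidence stands behind each kind of ID.

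Called genes were also placed along the contigs. IDs give a contig and, before the point, a number. In the usual naming of such pipelines this number counts windows along the contig, which the files do not state, and the counts below rest on that reading. By it, 330 of the 593 higher genes (55.6%) had another higher gene in their window, against 37.4% of all tested genes. Among lower genes 86 of 298 (28.9%) had another lower gene in their window, against 3075 of 10987 tested genes. All 5 tested models of contig 000191F, out of 6 listed, were higher, with log2 changes of 1.68 to 2.22 and adjusted p of 0.000704 to 0.0269 by edgeR. The most abundant of these 5 had 27.1 to 49.1 CPM in old females (median 42.3) and 10.2 to 18.2 CPM in young females (median 11.6). In each of the 5 the old samples lay above the young ones. The least abundant, at 0.403 to 1.38 CPM in old and 0.157 to 0.372 CPM in young females, passed the filter only through its old samples. For that gene the direction was set in advance, so neither it nor the separation is a result. Old non-reproducing and old reproducing females differed by at most 0.18 log2 units in these 5 genes. The contig was singled out after its values were seen, and neighbouring models may share reads, so their separate values are uncertain.

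Among the 66 contigs with at least 20 tested models, the share called higher ranged from 0 to 25% and the share called lower from 0 to 9.38%. The top value belonged to contig 000027F, where 10 of 40 tested models were higher and 0 lower, with log2 changes of 1.87 to 4.71, and 7 of the 10 were separated in all samples. All 10 were low, with old medians of 0.720 to 6.63 CPM and young medians of 0 to 0.912 CPM. Most of the 10 were too low in young females to pass the filter except through their old samples. For those the direction was set in advance, so neither it nor their separation is a result. Only 40 of the 250 models listed for this contig passed the filter, and fitted changes of genes this low in young females depend on the prior count, so the share describes the tested models and not the contig. Contig 000028F held 27 higher genes of 257 tested (10.5%), and the largest contigs by tested models, 000000F and 000001F, had 44 of 877 (5.02%) and 31 of 690 (4.49%), close to the 5.4% of all genes.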

How the data were processed

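RNA of 12 whole-body samples was sequenced from NEBNext Ultra II directional libraries after Qiagen RNeasy extraction, per the labels' protocols. Reads were aligned with STAR and handled with SAMtools, per the submitters' processing notes. The counting program, genome build and use of strand are not given in the sources used here. Per the file headers, the deposited values are raw read counts and RPKM for each gene model. Counts were the input of the tests, and RPKM served for gene lengths and as an alternative scale. Libraries were numbered in 1 block per group, so preparation order and group cannot be told apart.

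Analyses used R 4.3.3 and edgeR 4.0.16. Low genes were removed with filterByExpr (3 groups), and counts were scaled by TMM and fitted with 1 mean per group to all 12 samples (robust quasi-likelihood, no covariate). The mean of the 2 old groups was tested against young, and the old groups against each other, with Benjamini-Hochberg adjustment over 10987 genes. Library measures went through exact permutation tests, two-sided. The fit was checked on simulated data. All 18 replicate pairs differed by more than sampling noise (chi-square per degree of freedom at least 83.4). Separate libraries of 1 RNA sample could differ so too, so this does not show that the samples came from independent animals. Each sample counted separately in the fit. Each SE of a log2 change was its absolute value divided by the square root of the quasi-likelihood F value. It is thus an approximate measure, not an error taken from the fitted coefficients. Intervals were not computed, and the 3-count floor covers counting error only. Gene-model lengths were those that turn counts into the deposited RPKM to within 1.26e-06 percent. For 1 gene no RPKM value was given.

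Named genes were the 12 largest rises and 12 largest falls among called genes of at least 10 CPM in the higher group mean with no overlap between old and young samples, the 6 in each direction whose old groups differed by less than 0.5 log2 units, and the 6 most abundant called genes in each direction. The question, lists and tests were chosen with earlier results of these data known. Lists by gene product could not be used, because no ID was paired with a name. Alternatives were DESeq2 1.42.0, limma 3.58.1 on log2(RPKM + 1) and log2(RPKM + 0.1), a 2-group fit, the replicate number in the model, other scalings, filters and thresholds, thinned counts, and leaving out each sample.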

Additional observations from a re-analysis of the deposited data

Results flagged for a closer look

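Each sample that was extreme in its group of 4 was checked with Dixon's test, which divides its distance from the next value by the range of the group. Over 40 measures, 34 of them genes, this gave 120 checks. The limit of 0.829 was passed in 13. For independent, normally spread values chance alone passes it in about 1 in 20, or 6. The genes were checked in CPM rather than log2 values and were picked from these same samples. The 6 is therefore no firm chance level for the 13.

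Among young samples, replicate 2 stood above the others in the falls ranked 2 (42.2 CPM, others 1.97 to 8.51, ratio 0.838), 3 (55.6 CPM, others 5.02 to 11.9, ratio 0.863) and 12 (23.8 CPM, others 9.54 to 10.3, ratio 0.944). Young replicate 1 stood above the others in the fall ranked 10 (249 CPM, others 124 to 132, ratio 0.938), and young replicate 3 below them in the rise ranked 9 (7.19 CPM, others 11.5 to 12.1, ratio 0.882).

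Old reproducing replicate 4 was the highest of its group in the rise ranked 5 (30.1 CPM, others 10.1 to 13.5, ratio 0.831) and in 2 of the most abundant higher genes of contig 000011F (126 CPM, others 34.7 to 43.7, ratio 0.901, and 65.4 CPM, others 11.6 to 13.4, ratio 0.967). Old reproducing replicate 2 was the highest in both neighbouring falls of contig 000018F (20.0 CPM, others 4.96 to 6.04, ratio 0.929, and 20.8 CPM, others 6.70 to 7.06, ratio 0.975). Old non-reproducing replicate 1 was the lowest in the rise ranked 5 (13.1 CPM, others 164 to 192, ratio 0.842). Old non-reproducing replicate 3 was the highest in the fall ranked 7 (24.3 CPM, others 14.4 to 15.2, ratio 0.918) and in the most abundant lower gene (5243 CPM, others 3517 to 3544, ratio 0.984). In 0 genes did the 2 old groups lie on opposite sides of all young samples.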

How the results depend on the processing

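Against 891 calls (593 higher, 298 lower), there were 356 with the replicate block (326 higher, 30 lower), of which 318 and 24 were among the 593 and 298. There were 589 with no filter on low counts (135 lower), 326 when genes averaging under 5 CPM were dropped (258 and 68), 280 at an adjusted p of 0.01 (262 and 18) and 2102 with DESeq2 (1071 and 1031, 98 genes without an adjusted p). Lower calls numbered 104 in the 2-group fit, 39 with log2(RPKM + 1) and 43 with log2(RPKM + 0.1). Most alternatives kept a larger share of the 593 higher genes than of the 298 lower ones. Examples are the 2-group fit (525 higher and 103 lower kept) and log2(RPKM + 1) (478 and 35). The share of higher genes kept was the smaller one with RLE factors (564 and 298) and upper-quartile factors (498 and 280). The same held without young replicate 1 (489 and 280) or young replicate 3 (521 and 293). DESeq2 kept about equal shares (591 and 297). The other scalings moved the share of higher calls by under 10 percentage points. Leaving out 1 sample gave 370 to 1583 calls, 339 to 704 higher and 31 to 981 lower. Replicate numbers do not pair the samples: same-numbered samples correlated at -0.458 to 0.361 in their deviations, and 0 of 12 samples correlated best with its own number. Separated genes numbered 283 higher under the stricter filter and 34 lower with library totals only; without 1 sample they were 583 to 794 higher and 56 to 247 lower. Called genes that also differed between the old groups, 0 by edgeR, were 1 with the replicate block, 170 with DESeq2 and 0 to 173 without 1 sample. The share of counts in the 10 most abundant genes differed by -5.99 to -4.66 percentage points without 1 sample. Over 34 named genes and 23 alternatives, 214 of 782 values lost their call but kept direction and 0 reversed. 13 of these genes kept their call throughout. Depth limits the lowest genes: 34 higher calls had at most 3 counts in each young sample.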
